A study of Mus musculus with 6 samples.

Results

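The Sox genes encode transcription factors that share a DNA-binding HMG box and are grouped into subfamilies by sequence. Of the Sox genes outside Sox10, 10 with roles in neural and glial progenitors were taken by their symbols, out of 23038 genes listed. They were Sox2 and Sox3 (SoxB1), Sox21 (SoxB2), Sox4 and Sox11 (SoxC), Sox5, Sox6 and Sox13 (SoxD), and Sox8 and Sox9 (SoxE). Levels came from cultured mouse primary OPCs (mOPCs), the precursors of myelinating oligodendrocytes (OLs), which were purified from mouse embryos by immunopanning. The 3 siNC libraries were from cells given control siRNA and the 3 siQk libraries from cells given siRNA against Qk, all harvested at the same interval after transfection. Qk encodes the Qki RNA-binding proteins, and 3 different siRNAs were used against it, but which siQk library received which is not stated. Strain and sex were not given in the sources used here.

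In the OL lineage, the SoxE proteins Sox8, Sox9 and Sox10 act in specifying glia, and Sox10, assisted by Sox8, later switches on myelin genes. The long SoxD proteins Sox5 and Sox6 are known to hold precursors back from terminal differentiation. SoxB1 proteins keep neural progenitors undifferentiated, SoxB2 proteins counteract them, and SoxC proteins act in immature neurons and glial precursors. Qki proteins bind RNA at the motif ACUAAY, often in introns or 3′UTRs, where they act on splicing, stability and translation.

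The annotated 3′UTRs of the members were read for this motif, since they show which Sox transcripts carry the letters that Qki proteins are known to bind. The letters searched were ACTAAC and ACTAAT on the transcript strand, in the longest 3′UTR of each gene in GENCODE M21 (GRCm38). At least 1 motif was present in 5 of the 10 members, beside 37.1% of the tested genes with an annotated 3′UTR. The members held 6 motifs in all, or 0.204 per kilobase against 0.328 per kilobase over the 10844 tested genes with such a 3′UTR. The windows below show every site found, with the motif in capitals.

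Sox8: agagcctccccaACTAACctgcttaggttc
Sox2: gtatatatttgaACTAATaccatccttata
Sox21: gtatatattttgACTAATgtttgtgaatga
Sox5: taggtatttaaaACTAATttctatttctaa
Sox6, upstream site: tttttatcactgACTAATgtgaaactggta
Sox6, downstream site: gacagcctacttACTAATgaacaggttcta

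Among the members, Sox8 carried the ACTAAC form, and the other 5 sites were ACTAAT. The Sox8 site began at base 1012 of a 3′UTR of 1441 bases, and 34.1% of 3′UTRs of about that length held a motif. The 3′UTRs of Sox3 (712 bases), Sox9 (2250), Sox4 (2780), Sox13 (1662) and Sox11 (6957) held none, although 86.4% of 3′UTRs of about the length of that of Sox11 held at least 1. A match is a description of the letters and not a measured binding site, and introns were not searched.

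Library totals ranged from 58166490 to 141045937 tags, a tag being the unit in which the authors counted reads per gene. Levels are given as RPKM, the tags of a gene scaled to its exon length and to the library total. Qk was at 209, 206 and 163 RPKM in siNC and at 51.3, 76.6 and 36.2 RPKM in siQk (log2 fold change -1.98, FDR 0.00311), so that siQk replicate 2 kept the most Qk and replicate 3 the least. The siNC replicate 1 library was the smallest, with 3.11% of its tags on the ribosomal RNA gene Rn45s against at most 0.389% in the others. Of 10 OPC markers, 4 were called higher in siQk and 1 lower, with a summed level of 1055 to 1132 RPKM in siNC and 1277 to 1440 RPKM in siQk. Of 12 cell cycle genes, 10 were higher (summed level 82.4 to 100.6 RPKM in siNC, 141 to 247 RPKM in siQk). For comparison with each list in this paragraph, 31% of all 12505 tested genes were called, 13.8% as higher and 17.2% as lower. Of the 8 tested astrocyte markers, 4 were lower (293 to 413 against 288 to 311 RPKM). Gja1 did not exceed 0.013 RPKM, while S100b (110 to 175 RPKM) and Aldoc (82.6 to 118 RPKM) were abundant and not called. Gfap fell from a mean of 69.1 RPKM in siNC to 9.85 RPKM in siQk. Of the 8 tested neuron markers, 3 were higher, namely Snap25, Nefl and Map2 (list sum 158 to 253 against 198 to 237 RPKM). Stmn2 did not exceed 0.0439 RPKM, while Map2 (49.5 to 98.4 RPKM) and Tubb3 (68.4 to 166 RPKM, not called) were abundant. Of the 8 tested neural stem cell markers, 2 were higher and 3 lower (2311 to 2655 against 3517 to 3872 RPKM), with a median log2 fold change of -0.041. The higher sum came mostly from Fabp7 (mean 1169 RPKM in siNC, 2786 RPKM in siQk), while Vim fell (1223 to 764 RPKM). The microglia markers summed to at most 3.32 RPKM, with 1 tested and lower, and the fibroblast and vascular markers to at most 5.23 RPKM, with 1 tested and not called. These lists moved with the same contrast as the Sox genes, and their part in the Sox values was not tested. In such bulk libraries, fewer cells of a type and less RNA per cell cannot be told apart.

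The filter for testing, a mean logCPM above 0, kept all 10 members. Calls needed an unadjusted P under 0.01 together with an FDR under 0.1 in edgeR's quasi-likelihood test, and fold changes are siQk over siNC. By this rule 3 of the 10 were higher in siQk, namely Sox3, Sox8 and Sox9, and none was lower, although 3 with lower values (Sox21, Sox4 and Sox5) had an unadjusted P under 0.05 and DESeq2 called 2 lower. Over all 12505 tested genes, 31% were called, 13.8% as higher and 17.2% as lower. The 3 of 10 called was close to the share called in either direction, while all 3 were higher. The median log2 fold change of the members was 0.24, against 0.010 over all tested genes. The RPKM ranges of siNC and siQk did not overlap for 5 members, each of them higher in siQk, while over all tested genes 58.3% did not overlap (41.9% wholly higher and 16.4% wholly lower). RPKM carries no correction for library composition, and the TMM factors (0.899 to 0.987 in siNC, 1.04 to 1.07 in siQk) lower the fitted fold changes relative to it.

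**Figure D1:**
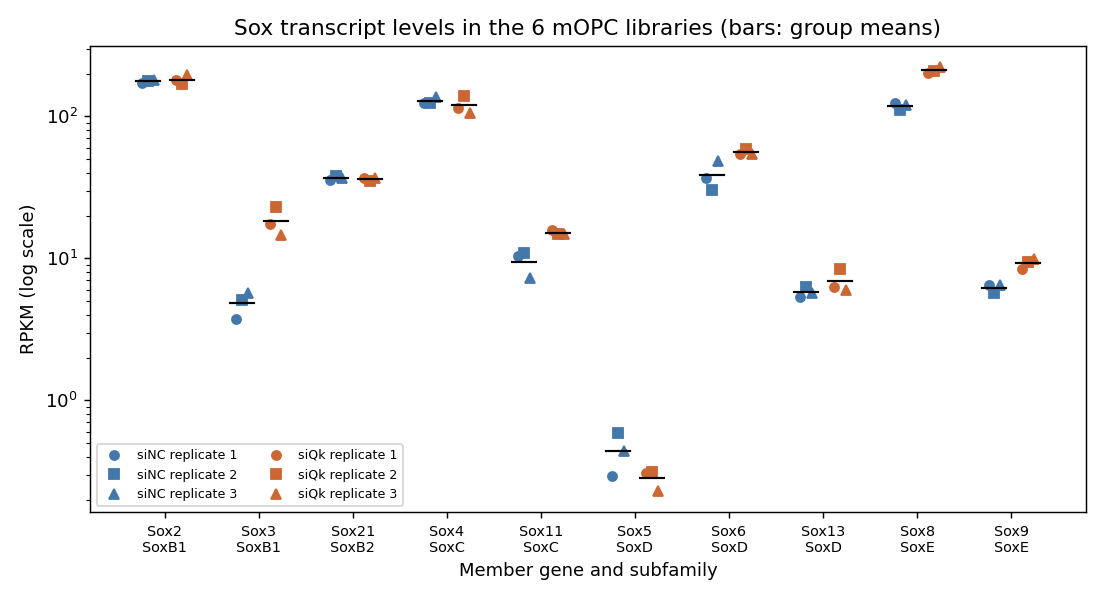
RPKM of the 10 Sox members on a log axis in the 3 siNC (blue) and 3 siQk (orange) libraries, with bars at the group means. The siQk points lie wholly above the siNC points for Sox3, Sox11, Sox6, Sox8 and Sox9.

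The cut on P decided much of this count. Beside the 3 called transcripts, 5 members had an FDR below 0.1 (0.0444 to 0.0947) with P over 0.01. Without the cut on P, an alternative chosen after seeing the data, 8 of the 10 members would be called, 5 higher and 3 lower, against 48.3% of all tested genes, 23.3% higher and 25% lower. DESeq2 called 6 members, 4 higher and 2 lower, and 39.1% of all genes. Leaving out 1 library at a time gave from 2 to 4 called members, while 19.8% to 29.7% of all genes were called in those fits.

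Among the SoxB genes, Sox3 stood apart. Sox3 (Entrez 20675, chrX:60891366-60893430, minus strand, mm10) encodes a SoxB1 activator of neural progenitors. Its level was 3.75, 5.08 and 5.72 RPKM in the siNC libraries and 17.5, 23.2 and 14.7 RPKM in the siQk libraries, the highest value being in siQk replicate 2. The lowest siQk value was above the highest siNC value, and an exact permutation test on 3 against 3 cannot go below a two-sided p = 0.1. In the fit it was 3.43-fold higher, a log2 difference of 1.78 (SE 0.19, FDR 0.00142), and it was called under each of the 18 alternatives, with values from 1.59 to 1.92.

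Sox2 (Entrez 20674, chr3:34650405-34652461, plus strand), the SoxB1 factor best known from stem cells, was the most abundant member in siNC. It was at 171, 177 and 182 RPKM in siNC and at 181, 169 and 195 RPKM in siQk, and the groups overlapped. Its log2 fold change was -0.11 (95% interval -0.30 to 0.074, FDR 0.296), turning to 0.040 with library size only. The Sox2 gene lies within Sox2ot, a noncoding transcript on the same strand, with no exon bases shared in GENCODE M21. Sox2ot ranged from 35.3 to 59.2 RPKM over siNC and from 42.0 to 51.1 RPKM over siQk (log2 fold change -0.23, FDR 0.391).

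Sox21 (Entrez 223227, chr14:118233232-118237030, minus strand), the SoxB2 member, which is known as a repressor of SoxB1 targets, was not called either. It was at 35.5, 37.7 and 37.1 RPKM in siNC and 36.5, 35.3 and 36.6 RPKM in siQk, with overlapping groups. The fit gave a log2 fold change of -0.18 (95% interval -0.31 to -0.045, FDR 0.0444), which did not pass the cut on P. It was called lower by DESeq2 (FDR 0.00953). With library size only, the log2 fold change of Sox21 was -0.026 (FDR 0.761), and with limma on the 2 RPKM scales it was -0.026 and -0.025, so that its size depended on the scaling. As a share of the SoxB1 level, taken as the summed RPKM of Sox1, Sox2 and Sox3, Sox3 made up 2.64% ± 0.459 (SD, n = 3, as for all such values) in siNC and 9.24% ± 2.54 in siQk, with no overlap. Sox2 made up the bulk of that sum in both groups, at 96.5% ± 0.562 and 90.02% ± 2.52. Shares within a library do not depend on how libraries are scaled against each other.

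Neither SoxC gene was called. Sox11 (Entrez 20666, chr12:27334264-27342574, minus strand), a factor of immature neurons, was at 10.3, 10.9 and 7.31 RPKM in siNC and at 15.7, 14.8 and 14.8 RPKM in siQk. All siQk libraries lay above all siNC libraries, with siNC replicate 3 the lowest. The fitted log2 difference was 0.51 (standard error 0.16, FDR 0.0469), outside the cut on P. Without siNC replicate 3 Sox11 was called, with a log2 fold change of 0.34, and it was called under 10 of the 18 alternatives in all, DESeq2 and edgeR's exact test included.

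Sox4 (Entrez 20677, chr13:28948919-28953713, minus strand) is the SoxC factor also described as a brake on OL differentiation. It was at 124, 124 and 138 RPKM in siNC and at 115, 138 and 106 RPKM in siQk. The groups overlapped, since siQk replicate 2 stood as high as the highest siNC library. The log2 fold change was -0.25 (95% interval -0.49 to -0.012, FDR 0.0899, not called), and without siQk replicate 2 it was -0.36 and called. With library size only it was -0.10 (FDR 0.481). An antisense gene, Gm26735, shares 2616 of the 4795 exon bases of Sox4 in GENCODE M21. The library kit does not mark strand, so that reads of both cannot be told apart there. The authors' exon length for Sox4 was 2953 bases, and how much of it is shared is not known. Of the summed RPKM of Sox4, Sox11 and Sox12, Sox11 made up 6.60% ± 1.52 in siNC and 10.7% ± 1.32 in siQk, with no overlap. The ratio of Sox4 to Sox11 was 14.1 ± 4.14 in siNC and 7.94 ± 1.22 in siQk, and its ranges did not overlap.

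Of the SoxD genes, none was called. Sox6 (Entrez 20679, chr7:115470872-116038796, minus strand) was the main SoxD transcript. It was at 36.9, 30.5 and 48.7 RPKM in siNC and at 54.3, 58.5 and 54.2 RPKM in siQk, the groups not overlapping and the siNC libraries spread more widely. The fitted log2 difference was 0.38 (standard error 0.15, FDR 0.0947), and without siNC replicate 3 it was 0.54 and called. Sox5 (Entrez 20678, chr6:143828425-144781977, minus strand), the closest relative of Sox6, was scarce, at 0.293, 0.587 and 0.438 RPKM in siNC and 0.307, 0.314 and 0.229 RPKM in siQk. These groups overlapped through siNC replicate 1. Its log2 fold change was -0.78 (standard error 0.25, FDR 0.0472) on 194 to 740 tags, and without siNC replicate 1 it was -0.97 and called. Sox5 was also called lower by DESeq2 (FDR 0.0118) and by edgeR's exact test (FDR 0.0156). In all, 5 of the 16 alternatives run for Sox5 called it.

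Sox13 (Entrez 20668, chr1:133382303-133424377, minus strand), the remaining SoxD gene, was at 5.32, 6.27 and 5.69 RPKM in siNC and 6.25, 8.44 and 5.97 RPKM in siQk. The groups overlapped, with siQk replicate 2 the highest. Its log2 fold change was 0.10 (95% interval -0.22 to 0.43, FDR 0.574) and turned to -0.055 without siQk replicate 2. Sox6 made up 85.7% ± 3.71 of the summed SoxD level in siNC and 88.7% ± 1.46 in siQk, and Sox5 made up 1.02% ± 0.482 and 0.450% ± 0.0641. Antisense genes share exon bases with Sox5 too (Sox5os1, 1330 of 14376 bases) and with Sox21 (Gm4675, 713 of 3799 bases), and were not analysed here. All siQk values of the Sox5 share lay under all siNC values.

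Both SoxE members rose. Sox8 (Entrez 20681, chr17:25565892-25570686, minus strand), which is known to assist Sox10 in OLs, was at 125, 112 and 120.3 RPKM in siNC and at 202, 208 and 222 RPKM in siQk. The siQk libraries were well apart from the siNC libraries and close to each other. The fitted log2 difference was 0.67 (standard error 0.089, FDR 0.00271), or 1.59-fold, and Sox8 was called under each of the 18 alternatives, with values from 0.62 to 0.82. The antisense gene 2810468N07Rik shares 329 of the 3118 exon bases of Sox8 in GENCODE M21, while the authors' exon length for Sox8 was 2189 bases. The level of 2810468N07Rik was 107 ± 18.4 RPKM in siNC and 95.5 ± 10.6 RPKM in siQk (log2 fold change -0.32, FDR 0.152), and it was not called.

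Sox9 (Entrez 20682, chr11:112782224-112787760, plus strand), which specifies glia in the neural tube and stays on in astrocytes, was much scarcer. It was at 6.49, 5.74 and 6.46 RPKM in siNC and at 8.44, 9.44 and 9.98 RPKM in siQk, with no overlap. The fitted log2 difference was 0.42 (standard error 0.10, FDR 0.0190), or 1.34-fold. The call was lost without siNC replicate 2 (0.36), siNC replicate 3 (0.42), siQk replicate 2 (0.42) or siQk replicate 3 (0.36), and with the replicate number as a block (0.42, FDR 0.0568). Its direction held in all of these.

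Sox10, the SoxE factor that defines the OL lineage, averaged 158 ± 16.2 RPKM over siNC and 173 ± 9.66 RPKM over siQk, and its log2 difference of -0.019 (FDR 0.894, not called) turned positive under 8 of the 18 alternatives. Sox8 made up 42.1% ± 3.36 of the summed SoxE level in siNC and 53.6% ± 1.90 in siQk, with no overlap, and Sox10 55.7% ± 3.58 and 44.0% ± 1.98. Sox9 stayed at 2.21% ± 0.221 and 2.36% ± 0.132. Sox8 exceeded Sox9 by a ratio of 19.3, 19.5 and 18.6 in siNC and 23.9, 22.1 and 22.3 in siQk.

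**Figure D2:**
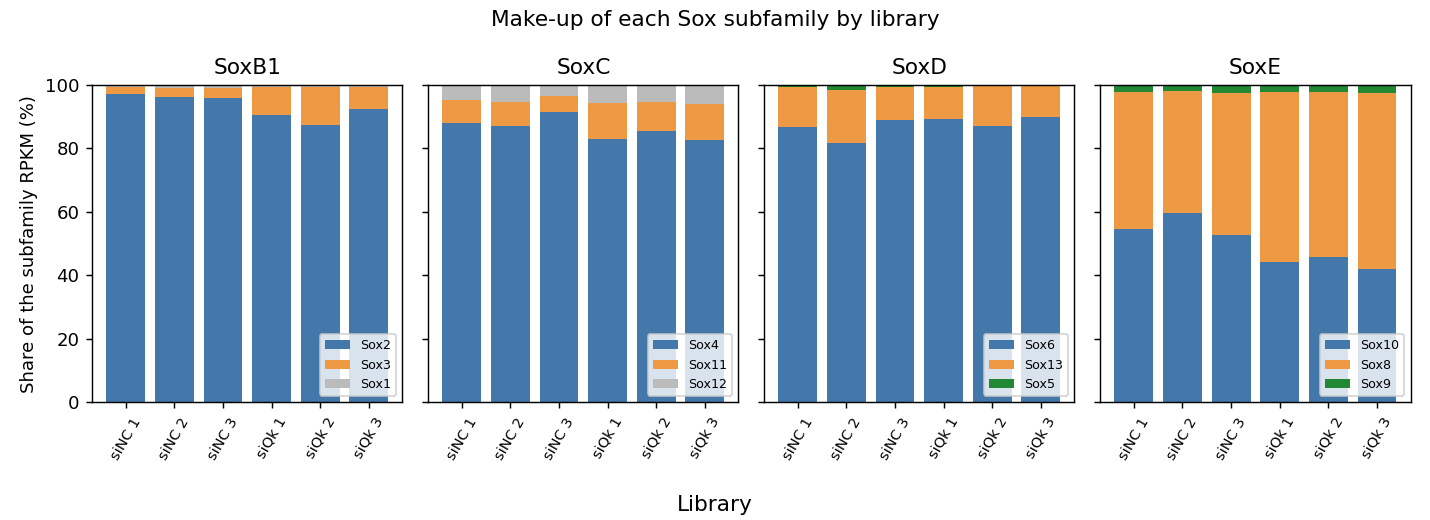
Share of the summed RPKM of each Sox subfamily held by each gene, in percent, for each of the 6 libraries (stacked bars, gray for Sox1 in SoxB1 and Sox12 in SoxC). The parts held by Sox3, Sox11 and Sox8 are wider in all 3 siQk bars than in any siNC bar.

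**Figure D3:**
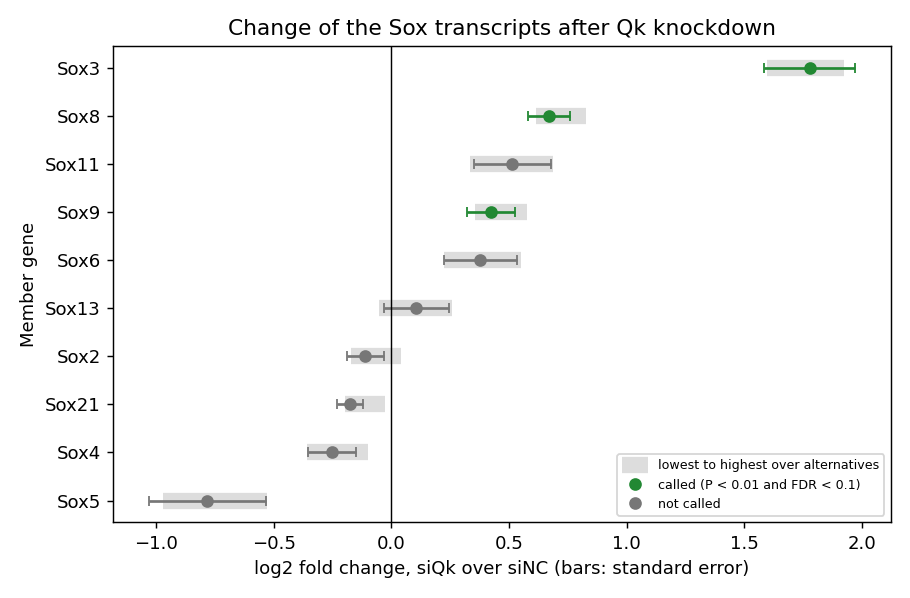
Log2 fold change of each member, siQk over siNC, with its standard error, green where called and gray where not, over pale bars that run from the lowest to the highest value under the alternatives. Sox3 lies at 1.78 and Sox8 at 0.67, and the pale bar of Sox2 and that of Sox13 cross 0.

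Compared per length of exon, the members spanned a wide range in mOPCs. In siNC the order of mean RPKM was Sox2 (176), Sox4 (129), Sox8 (119), Sox6 (38.7), Sox21 (36.8), Sox11 (9.50), Sox9 (6.23), Sox13 (5.76), Sox3 (4.85) and Sox5 (0.439). Neighbours whose ranges overlapped there were Sox4 and Sox8, Sox6 and Sox21, Sox9 and Sox13, and Sox13 and Sox3. In siQk, Sox8 (211 RPKM) stood above Sox2 (181 RPKM) in all 3 libraries, and Sox3 (18.5 RPKM) had passed Sox13, Sox9 and Sox11 in mean level. Of the siQk neighbours, Sox3 and Sox11 overlapped in range, Sox3 being higher in 2 of the 3 libraries. The coding transcripts of Sox2, Sox3, Sox21, Sox4 and Sox11 have 1 exon, so that reads from unspliced RNA or DNA cannot be told from theirs.

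Of 10 other Sox genes, 3 passed the filter and none was called in edgeR's test, where none had an unadjusted P under 0.05, nor in DESeq2 or the other alternatives. The lowest FDR of Sox1 over the alternatives was 0.0682, with DESeq2. Sox12, the remaining SoxC gene, had a log2 fold change of 0.17 (FDR 0.391) and Sox1, the remaining SoxB1 gene, one of -0.29 (FDR 0.109). The 7 under the filter did not exceed 0.472 RPKM in any library, the highest being Sox15.

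Genes known to work with Sox proteins on DNA or chromatin were taken as a list of 20, all of them tested. Higher in siQk were 7 of them and none was lower in edgeR's test (Nfix alone was lower at an unadjusted P under 0.05). That is 35% called higher, beside 13.8% called higher and 17.2% called lower over all tested genes (31% in either direction). The median log2 fold change of the list was 0.19. Nkx2-2, a homeodomain factor of OPCs, rose from 23.0 ± 5.73 RPKM to 47.6 ± 5.46 RPKM (means and SDs of 3 libraries), with a log2 fold change of 0.90 and FDR 0.00766. Olig2, the bHLH factor of the OL lineage, rose from 132 ± 9.62 to 236 ± 14.0 RPKM (0.69, FDR 0.00163). Smarca4, the ATPase of the BAF remodeler, rose with a log2 fold change of 0.50 and Hdac2, a histone deacetylase, with one of 0.44. The call of Smarca4 was lost in 5 of the 6 fits that left out a library, the exception being siNC replicate 1, with values from 0.41 to 0.52 where lost. Both Olig genes and Nkx2-2 are also OPC markers and so count in both lists. The count was 3 without siQk replicate 1 and 4 without siQk replicate 2 or 3, fits that called 19.8%, 21.5% and 24% of all genes. It was 13 with library size only, where 34.8% of all genes were called, a scaling that moved the median of all tested genes to 0.16.

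Genes described as targets of Sox proteins in neural, glial or cartilage cells were a list of 19, of which 15 were tested. Of these, 2 were higher and 4 lower in siQk, which is 40% called beside the 31% over all genes, and the median log2 fold change was -0.10. Hes5, a Notch effector that Sox4 is described to induce in OPCs, rose from 22.0, 27.2 and 19.7 RPKM to 94.7, 91.9 and 98.6 RPKM (log2 fold change 1.90, FDR 0.000446). Fabp7, a lipid-binding protein of radial glia, rose with a log2 fold change of 1.09 (FDR 0.00649). Sox4 itself was not called, at -0.25. Hes5 and Fabp7 are also the 2 higher neural stem cell markers, and Gfap is also an astrocyte marker, so that these count in both lists.

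The 4 targets that fell were Gfap, Mbp, Apcdd1 and Mmd2. Gfap, the intermediate filament of astrocytes, fell from 69.1 ± 27.9 to 9.85 ± 1.26 RPKM (log2 fold change -2.95). The myelin gene Mbp, which Sox10 activates, fell with a log2 fold change of -2.21 (FDR 0.0312). Its call was lost with the replicate block (-2.41) and without siNC replicate 1 or 2 or siQk replicate 1 or 2 (-2.09 to -1.84). Apcdd1, described downstream of Sox9 in glia, fell with a log2 fold change of -0.60 (FDR 0.00968), and lost its call with library size only and with limma (-0.45 to -0.42). Any link of these falls to the higher Sox8 and Sox9 levels was not tested. Other glial targets on the list were not called, among them Myrf (-0.52, FDR 0.148), Zfp488 (-0.10, FDR 0.586) and Erbb3 (-1.50, FDR 0.0701). The cartilage targets Acan, Hapln1 and Col2a1 stayed at or below 0.209 RPKM and were not tested.

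**Figure D4:**
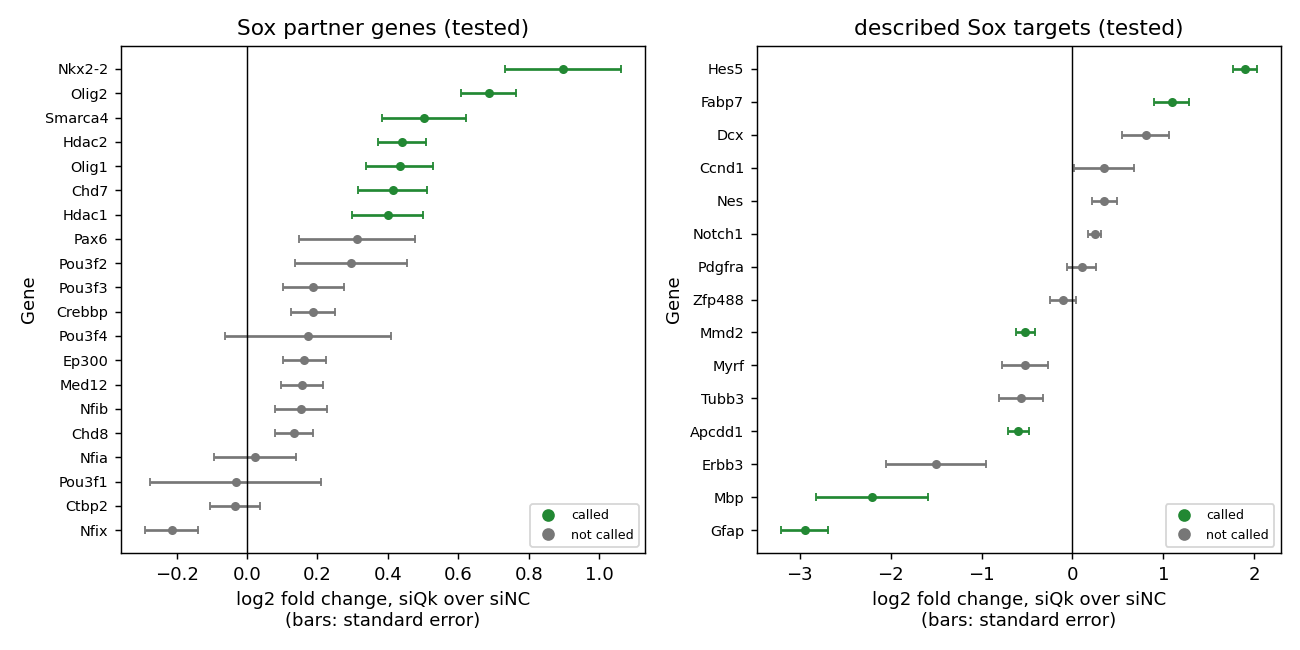
Log2 fold change, siQk over siNC, with its standard error for the 20 partner genes and the 15 tested targets, green where called and gray where not. All green points among the partners lie to the right of 0, and of the green points among the targets Hes5 and Fabp7 lie to the right and 4 to the left.

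The genes most similar in pattern to each member were taken by Pearson r of log2 CPM over the 6 libraries, among 10026 genes with an average logCPM over 3. With 6 libraries in 2 groups, any gene that differs between the groups correlates with any other that does, so that r is a description with no p. For Sox3 the closest were Tsen54 (r = 0.999) and Taf1d (0.998), with 56 genes at r over 0.99. For Sox8 they were Gne (0.999) and Hap1 (0.996), and for Sox9 they were 2210018M11Rik (0.992) and Cherp (0.99). For Sox11 they were Casp8ap2 (0.996) and Snrpe (0.995), and for Sox6 Ppil4 and Creld1 (both 0.997). Those of Sox2 were Bcl2l2 (0.99) and Elmo2 (0.984), and those of Sox21 were Scarb2 (0.999) and Eif5a2 (0.997). Sox4 was closest to Tatdn3 (0.994) and D19Ertd737e (0.99), Sox5 to Trps1 (0.996) and Derl2 (0.994), and Sox13 to Setd8 (0.977) and Sfi1 (0.972). No gene named here appeared for more than a single member, but only the 2 closest were kept for each, so that the lack of a repeat says little.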

How the data were processed

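RNA of 3 siNC and 3 siQk mOPC cultures was made into unstranded poly-A libraries (TruSeq v2). The authors aligned paired reads to mm10 with OLego and counted with Quantas (versions and annotation not given in the sources used here). The authors deposited, per gene, an estimated count of tags, exon length and RPKM.

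Estimated counts were rounded and tested with edgeR 4.0.16 (limma 3.58.1, R 4.3.3): quasi-likelihood test, TMM, group as the only term, average logCPM over 0. Standard errors were derived from the F statistic (effect size over the root of F). FDR is the Benjamini-Hochberg adjustment over 12505 genes. Replicates were compared first: the chi-square per degree of freedom was 185 to 326 between siNC libraries and 36.3 to 74.0 between siQk libraries. Libraries of a group thus differed by more than counting noise, and each was counted. Such spread cannot show that the cultures were independent. The methods call the replicates independent cultures.

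On simulated data with 199 of 12450 genes changed, 90.5% were called and 12.6% of calls were unchanged genes. The raised genes there had a median log2 fold change of 1.02. Smaller changes, such as those of most members, were not simulated, so that the 90.5% does not apply to them. Alternatives were DESeq2 1.42.0, edgeR's exact test, other normalizations, filters and cutoffs, a replicate block, limma on log2(RPKM + 0.1) and log2(RPKM + 1), and each library left out. Named were all members, called list genes with the largest changes and genes most alike in pattern. A gene of the target list is not reported here and was left out of that list's counts. Members and lists were chosen with earlier results of these data known.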

Additional observations from a re-analysis of the deposited data

How the results depend on the processing

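Sox3, Sox8 and Qk kept their call and direction under all 18 alternatives (Qk from -2.29 to -1.76). The members called changed numbered 6 with DESeq2 or FDR below 0.05 (39.1% and 36.9% of all genes), 5 with edgeR's exact test (34.3%) or limma on either RPKM scale (35.1% and 35%), and 8 without the cut on P (48.3%). Called higher were 5 with limma or without the cut on P. Called lower were 2 with DESeq2 or FDR below 0.05, 1 with the exact test, 3 without the cut on P, and from 0 to 1 with 1 library left out, Sox5 without siNC replicate 1 and Sox4 without siQk replicate 2. Partner genes called numbered 13 with library size only, 12 with limma on either scale or without the cut on P, and 3 to 6 with 1 library left out. Targets called numbered 10 without the cut on P.

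The log2 fold change of Sox2 turned to 0.040 with library size only and 0.038 with limma on either scale. That of Sox13 ranged from -0.055 to 0.19 with 1 library left out. That of Sox10 was 0.043 with upper quartile, 0.14 with library size only and limma, 0.0044 without a filter, and from -0.11 to 0.041 with 1 library left out. The causes were not tested.

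Deviations of same-numbered libraries correlated at -0.053, -0.15 and -0.34, so no pairing by replicate number was seen in these values. These correlations cannot exclude that same-numbered cultures were prepared together, since different siRNAs were used within siQk. Whether the cultures were paired is not stated in the sources used here. With the replicate number as a block, 2 of the 10 members were called, Sox3 and Sox8, beside 22.4% of all tested genes. Over all alternatives and the genes followed through them, 18 values lost the call and 24 gained it. Not every gene named here was followed in this way. Sox5 rests on few tags (194 to 740).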
